A study of Rattus norvegicus with 6 samples.

Results

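The proteasome is the protein complex that degrades ubiquitin-tagged proteins, and its subunit genes were taken here as all gene symbols in the count files that begin with Psma to Psmg followed by a digit. This rule, which uses no measured value, found 49 of the 17327 genes. The study asked which genes soluble Neuregulin1 (NRG1), a growth factor released after nerve injury, regulates within hours in Schwann cells, which ensheathe the axons of peripheral nerves. Primary Schwann cells from sciatic nerves of adult female Wistar rats were grown to confluence in a medium with a neuregulin, named as glial growth factor in the labels and as NRG1β1 in the methods of the study, and forskolin, a compound that raises cAMP. They were then starved for 18 h in medium with 2% serum and 10 µM forskolin. The 3 mock samples then received the buffer of the ligand, PBS with bovine serum albumin, for 6 h, and the 3 NRG1 samples received 10 nM recombinant NRG1β1 for the same time. All 6 samples thus carried forskolin and had seen a neuregulin before starvation, and cultured cells of this kind have lost their contact with axons. The groups share the numbers 1, 2 and 3, each for 1 independent cell preparation that gave 1 mock and 1 NRG1 sample.

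The 26S proteasome consists of a barrel-shaped core particle (20S) and a regulatory particle (19S) that sits on its ends. Rings of alpha subunits (Psma genes) gate the core, and rings of beta subunits (Psmb genes) enclose the proteolytic sites. The regulatory particle recognises ubiquitin chains, unfolds the protein with a ring of ATPases (Psmc genes) and removes the chain with its non-ATPase subunits (most Psmd genes). Other activators (Psme genes) and an inhibitor (Psmf1) can bind the core in its place, and assembly chaperones (Psmg genes, Psmd5, Psmd9 and Psmd10) help to build the complex without remaining in it. In immune cells and after interferon, the beta subunits encoded by Psmb8, Psmb9 and Psmb10 replace the constitutive catalytic subunits encoded by Psmb5, Psmb6 and Psmb7. In Schwann cells the ubiquitin-proteasome system is known for its part in the turnover of the myelin protein PMP22.

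Counts on genes ranged from 6821590 to 15475018 per sample, and a level of 3 counts corresponded to between 0.194 and 0.44 CPM of the unscaled gene counts. All gene levels below are CPM in which library sizes were scaled by TMM, a normalization that evens out differences in composition. Both libraries of replicate 1 stood apart from the other 4. The 7 fibroblast markers summed to 53425, 22332 and 14063 CPM in mock cells and to 57718, 13693 and 13926 CPM after NRG1, and 3 of them, Dcn, Lum and Thy1, had 0 counts in all samples of replicates 2 and 3. The 7 Schwann cell markers found in the files summed to 6155, 16097 and 15858 CPM in mock cells of replicates 1, 2 and 3 and to 4816, 12581 and 13170 CPM after NRG1, lower in every pair. The 7 macrophage markers summed to between 2.67 and 4.65 CPM, with 0 counts of Ptprc and Adgre1 in every sample. The 5 endothelial markers summed to 10.0, 15.2 and 10.9 CPM in mock cells and to 6.53, 8.88 and 7.55 CPM after NRG1, lower in every pair. Tek alone made up 8.82, 14.8 and 10.7 CPM of these sums in mock cells and 5.87, 8.88 and 7.36 CPM after NRG1. Pecam1 and Cdh5 had 0 counts, and Kdr and Vwf had at most 5 counts in a sample, so the sum describes 1 gene rather than a cell type. In bulk RNA, fewer cells of a type and less RNA per cell cannot be told apart.

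Of the 49 genes, 44 passed the filter on low counts and were tested with all 9740 genes that passed it. Most of them were counted slightly higher after NRG1, by much less than the 2-fold change that the study used as its threshold. A positive log2 fold change was found for 36 of the 44 (81.8%), against 47.2% of all tested genes, and the median over the 44 was 0.24 against -0.03 over all tested genes. In edgeR's quasi-likelihood test with the replicate number as a block, 2 genes rose at an adjusted p of at most 0.01, namely Psmc4 and Psme3. These are 4.55% of the 44, against 6.31% of all tested genes called higher. Which share was larger depended on the fit: it was 6.82% of members against 5.77% of all genes in DESeq2 with the block, 9.09% against 6.83% with RLE normalization, 9.09% against 6.52% with robust empirical Bayes and 10.4% against 6.46% with no low-count filter. With a replicate left out it was at most 2.22% of members against at least 4.02% of all genes. No gene of the 44 fell at this threshold, while 5.51% of all tested genes did. Before adjustment, 20 of the 44 had p under 0.05 with a higher and 1 with a lower count (47.7% in all, against 17.0% higher and 18.7% lower of all tested genes), and DESeq2 with the block also called none lower. None of the 44 passed both the adjusted p and the 2-fold threshold of the study in edgeR or DESeq2, against 3.47% of all tested genes.

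**Figure D1:**
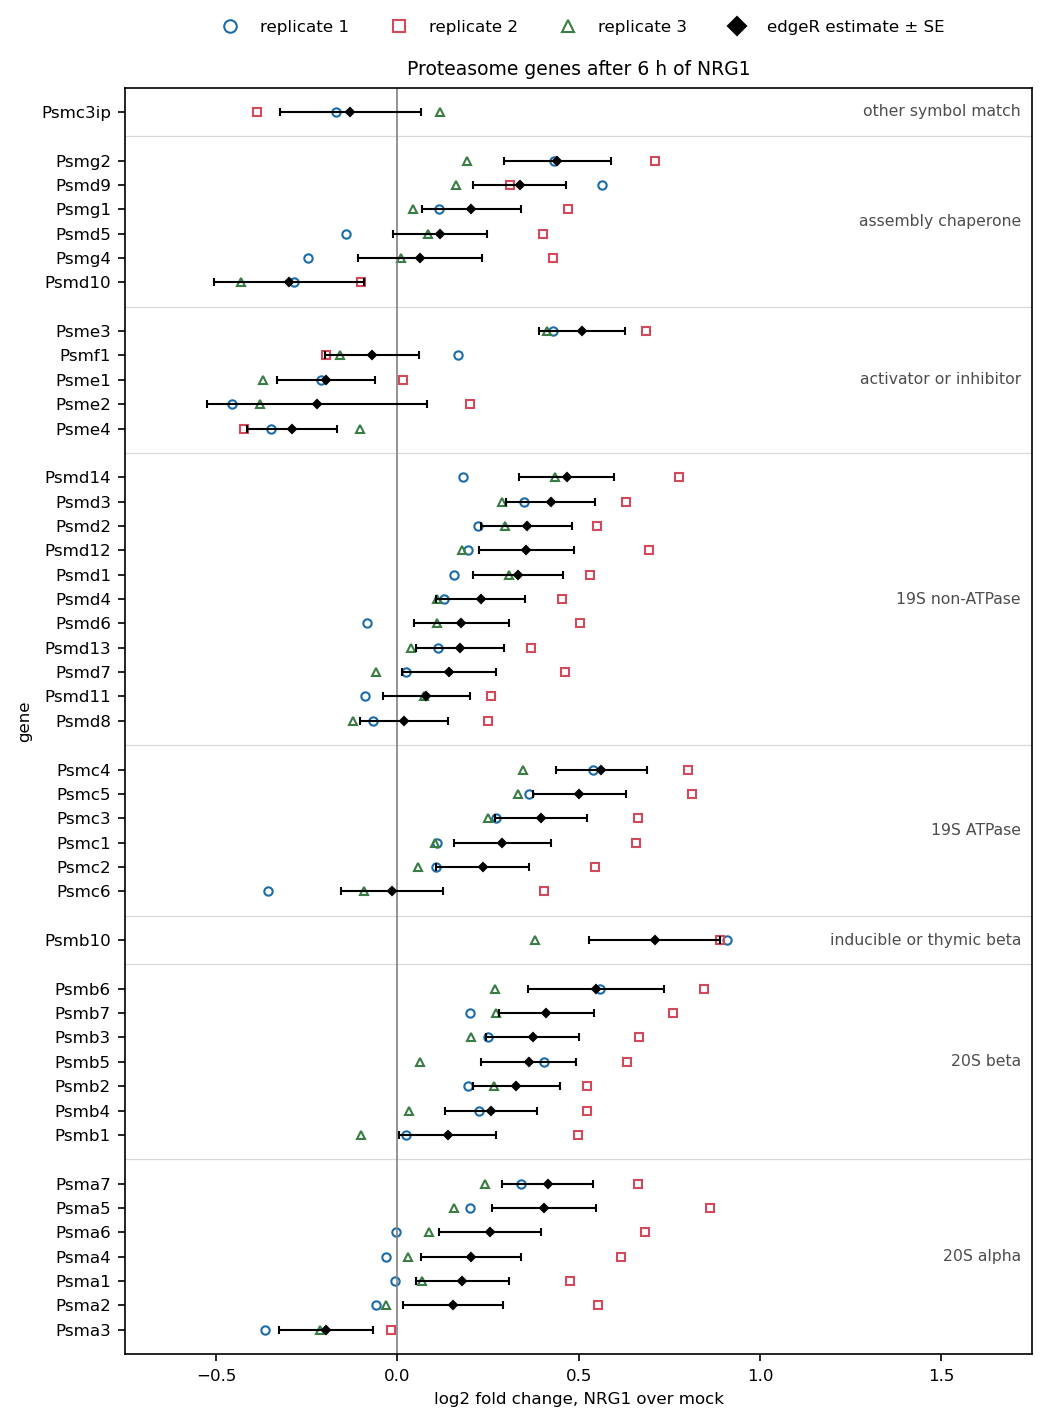
Log2 fold change (horizontal axis, NRG1 over mock) of the 44 tested proteasome genes, grouped by role. Black diamonds are edgeR estimates with 1 standard error, and open symbols are the log2 ratios within replicates 1, 2 and 3. An estimate above 0 is seen for 36 of the 44 genes, and the ratio of replicate 2 is the largest of the 3 in 39 of the 44 genes.

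Psmc4 encodes an ATPase of the regulatory particle. It was counted at 107, 125 and 145 CPM in mock cells of replicates 1, 2 and 3, and at 156, 219 and 184 CPM after NRG1. The NRG1 values all lay above the mock values, and the log2 fold change was 0.56 (SE, standard error, 0.13, edgeR adjusted p = 0.0054). Psme3 encodes the gamma subunit of the PA28 activator, which forms a ring on the core particle in the nucleus and acts without ubiquitin. It was counted at 66.9, 74.6 and 77.8 CPM in mock cells and at 90.1, 120.0 and 103.6 CPM after NRG1. The groups did not overlap here either, and the log2 fold change was 0.51 (SE 0.12, edgeR adjusted p = 0.0072). Neither call held in every fit that left out a replicate. Psmc4 had an adjusted p of 0.011 without replicate 1, 0.019 without replicate 2 and 0.0063 without replicate 3, and Psme3 had 0.015, 0.02 and 0.024. The 1 gene that passed without replicate 1 was Psmd14, which is described with its role, and the 1 that passed without replicate 3 was Psmc4. Without the replicate block, no member passed and the smallest adjusted p of any member was 0.23.

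The promoters of both called genes are shown with that of Psmb10, which had the largest fold change and an adjusted p just over the threshold, and which was added after its values were seen. The sequences are from RefSeq on the GRCr8 build, a later build than the rn5 assembly to which the reads were mapped, and run from 250 bases before to 50 bases after the start of each gene on its own strand. Psmc4 lies on the minus strand at chr1:92485011-92485310, Psme3 on the plus strand at chr10:86757683-86757982 and Psmb10 on the minus strand at chr19:50743243-50743542. Capitals mark a match on either strand to CCAAT (the box bound by NF-Y), TGACNNNGC (the core of the antioxidant response element), CACGTG (an E-box) or a pair of GAAA repeats spaced by 2 bases (a core of the interferon-stimulated response element, added after the sequences were seen).
Psmc4: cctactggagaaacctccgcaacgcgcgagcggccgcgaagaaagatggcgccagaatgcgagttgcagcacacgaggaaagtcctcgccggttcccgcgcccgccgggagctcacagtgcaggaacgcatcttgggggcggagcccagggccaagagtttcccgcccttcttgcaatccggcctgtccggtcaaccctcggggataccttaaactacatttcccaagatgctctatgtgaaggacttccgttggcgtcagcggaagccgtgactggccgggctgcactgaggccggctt
Psme3: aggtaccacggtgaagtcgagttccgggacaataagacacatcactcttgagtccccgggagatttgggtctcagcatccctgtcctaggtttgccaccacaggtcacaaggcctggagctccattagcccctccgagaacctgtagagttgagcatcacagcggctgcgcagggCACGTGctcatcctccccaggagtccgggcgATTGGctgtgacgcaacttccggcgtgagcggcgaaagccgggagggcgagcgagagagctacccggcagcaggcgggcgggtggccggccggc
Psmb10: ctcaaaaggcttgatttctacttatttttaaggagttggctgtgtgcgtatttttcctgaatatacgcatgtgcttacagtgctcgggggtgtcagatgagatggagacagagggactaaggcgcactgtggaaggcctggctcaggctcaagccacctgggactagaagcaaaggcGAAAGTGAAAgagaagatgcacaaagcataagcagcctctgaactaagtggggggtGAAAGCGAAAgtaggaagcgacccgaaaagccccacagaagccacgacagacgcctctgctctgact
The Psmc4 window held none of these motifs. The Psme3 window held an E-box from 75 to 70 bases before the start and, on the opposite strand, a CCAAT box from 44 to 40 bases before it. The Psmb10 window held the paired GAAA repeat at 2 places, from 73 to 64 and from 17 to 8 bases before the start. RefSeq promoters were found for 43 of the 49 genes, and 48.8% of them held CCAAT against 37.5% of all 33469 promoters in the table. The corresponding shares were 18.6% against 12.1% for TGACNNNGC, 11.6% against 6.42% for CACGTG and 16.3% against 3.92% for the paired GAAA repeat. TGACNNNGC was found in the windows of Psma3, Psmb2, Psmb5, Psmb6, Psmd1, Psmd3, Psmd9 and Psme4, whose median log2 fold change was 0.33, against 0.20 for the 32 tested genes with a promoter that lacked it. The medians with and without the motif were 0.34 and 0.20 for CACGTG, 0.20 and 0.26 for CCAAT, and 0.17 and 0.24 for the paired GAAA repeat. The paired GAAA repeat was found in 7 windows, those of Psma4, Psmb3, Psmb8, Psmb10, Psmd7, Psme2 and Psmg4. These matches are descriptions of letters and no evidence of binding.

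Of the 9 genes of the alpha rings, 7 were tested and none passed an adjusted p of 0.01 in edgeR, while 2 (28.6%, against 35.7% of all tested genes) had an unadjusted p under 0.05 and DESeq2 with the block called none. Their median log2 fold change was 0.20. The largest was that of Psma7, which was counted at 156, 195 and 236 CPM in mock cells and at 198, 310 and 279 CPM after NRG1, with a log2 fold change of 0.41 (SE 0.13, edgeR adjusted p = 0.028). All 3 pairs had the higher count after NRG1, but mock sample 3 exceeded NRG1 sample 1. The lowest value was that of Psma3, at 46.8, 53.6 and 36.0 CPM in mock cells and 36.3, 52.9 and 31.1 CPM after NRG1, with a log2 fold change of -0.20 (SE 0.13, edgeR adjusted p = 0.3). Psma3 was 1 of only 3 members counted lower in all 3 pairs, with Psme4 and Psmd10, against 30.0% of all tested genes. Psma3l, a symbol that RefSeq now lists as a synonym of Psma3, had between 1 and 10 counts per sample and was not tested, so the reads of this gene may be divided between the symbols. Psma8, which encodes an alpha subunit of the testis, had 0 counts in all 6 samples.

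All 7 constitutive beta genes had a positive log2 fold change, with a median of 0.36, and none passed an adjusted p of 0.01. Unadjusted, 5 (71.4%, against 35.7% of all tested genes) had p under 0.05, and DESeq2 with the block called none. Of the 3 genes that encode proteolytic subunits, Psmb5 (chymotrypsin-like site) was counted at 87.9, 95.7 and 135 CPM in mock cells and at 116, 148 and 141 CPM after NRG1, with a log2 fold change of 0.36 (SE 0.13, edgeR adjusted p = 0.058). The highest mock value lay within the range of the NRG1 values, and the log2 ratio in replicate 3 was 0.06. Psmb6, for the caspase-like site, was counted at 6.81, 9.47 and 11.3 CPM in mock cells and at 10.1, 17.2 and 13.6 CPM after NRG1, a log2 fold change of 0.55 (SE 0.19, edgeR adjusted p = 0.048). Its groups overlapped. Psmb7, for the trypsin-like site, was counted at 104, 112 and 134 CPM in mock cells and at 120, 190 and 162 CPM after NRG1, a log2 fold change of 0.41 (SE 0.13, edgeR adjusted p = 0.037). At the other end was Psmb1, a subunit without proteolytic activity, at 175, 177 and 191 CPM in mock cells and 177, 251 and 178 CPM after NRG1. Its log2 fold change was 0.14 (SE 0.13, edgeR adjusted p = 0.49), it rested on replicate 2, and it was -0.04 without that replicate.

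The inducible catalytic subunits were near the limit of detection, apart from Psmb10. Psmb10, the counterpart of Psmb7, was counted at 8.28, 9.91 and 12.1 CPM in mock cells and at 15.7, 18.5 and 15.8 CPM after NRG1. Every NRG1 value exceeded every mock value, and the log2 fold change of 0.71 was the largest of the 44 (SE 0.18, edgeR adjusted p = 0.011). The adjusted p was 0.0097 with robust empirical Bayes, 0.046 in DESeq2 with the block and 0.24 in edgeR without it, so the call turned on the fit. The counts of Psmb10 divided by those of Psmb7 gave 0.0793, 0.0884 and 0.0898 in mock cells and 0.131, 0.0976 and 0.0972 after NRG1. The ratio was thus clearly higher after NRG1 in replicate 1 only, and slightly higher in replicates 2 and 3. In these 2 replicates Psmb10 had 67 and 153 counts in mock cells and 165 and 244 after NRG1. Whether such small differences exceed the counting error was not tested. Psmb8 had 12, 1 and 0 counts in mock cells and 12, 0 and 0 after NRG1. Nearly all of its counts thus came from replicate 1, the culture with the high fibroblast markers, and their part in this was not tested. Psmb9 had 14, 1 and 5 counts in mock cells and 4, 2 and 4 after NRG1. Psmb11, the beta subunit of the thymus, had between 1 and 13 counts per sample. No fold change is given for these 3 genes, which the filter removed.

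Among the 6 ATPase genes of the regulatory particle the median log2 fold change was 0.34. Of these 6, 4 (66.7%, against 35.7% of all tested genes) had an unadjusted p under 0.05. Psmc4 was the 1 gene called (16.7%, against 6.31% of all tested genes called higher). Psmc5, its neighbour by p-value, was counted at 116, 121 and 148 CPM in mock cells and at 149, 212 and 187 CPM after NRG1, with no overlap between the groups. Its log2 fold change was 0.50 (SE 0.13, edgeR adjusted p = 0.012), and it passed the threshold in DESeq2 with the block. The lowest value belonged to Psmc6, at 166, 141 and 126 CPM in mock cells and at 130, 187 and 118 CPM after NRG1. It was counted lower after NRG1 in replicates 1 and 3 and higher in replicate 2, and its log2 fold change of -0.02 (SE 0.14, edgeR adjusted p = 0.95) changed sign with the replicates in the fit. Although these 6 proteins occupy 1 ring in equal numbers, the estimates of Psmc4 and Psmc6 thus differed, a difference that was not tested.

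All 11 non-ATPase genes of the regulatory particle had a positive log2 fold change, between 0.02 and 0.47 with a median of 0.23, and none passed an adjusted p of 0.01. Unadjusted, 5 (45.5%, against 35.7%) had p under 0.05, and DESeq2 with the block called none. Psmd14, which encodes the deubiquitinase that removes ubiquitin chains from substrates, was highest. It was counted at 92.9, 92.9 and 97.9 CPM in mock cells and at 105, 159 and 132 CPM after NRG1. The mock values were close together and all NRG1 values lay above them, with a log2 fold change of 0.47 (SE 0.13, edgeR adjusted p = 0.019). The log2 fold change was 0.61 without replicate 1 (edgeR adjusted p = 0.0064), 0.32 without replicate 2 (0.078) and 0.50 without replicate 3 (0.062). Psmd3, a structural subunit, had a log2 fold change of 0.42 (SE 0.12, edgeR adjusted p = 0.022). Psmd4, a receptor for ubiquitin chains, was counted at 140, 142 and 183 CPM in mock cells and at 153, 194 and 198 CPM after NRG1, a log2 fold change of 0.23 (SE 0.12, edgeR adjusted p = 0.19). Psmd8 was lowest, at 94.2, 117 and 120 CPM in mock cells and at 89.9, 139 and 110 CPM after NRG1, a log2 fold change of 0.02 (SE 0.12, edgeR adjusted p = 0.93).

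**Figure D2:**
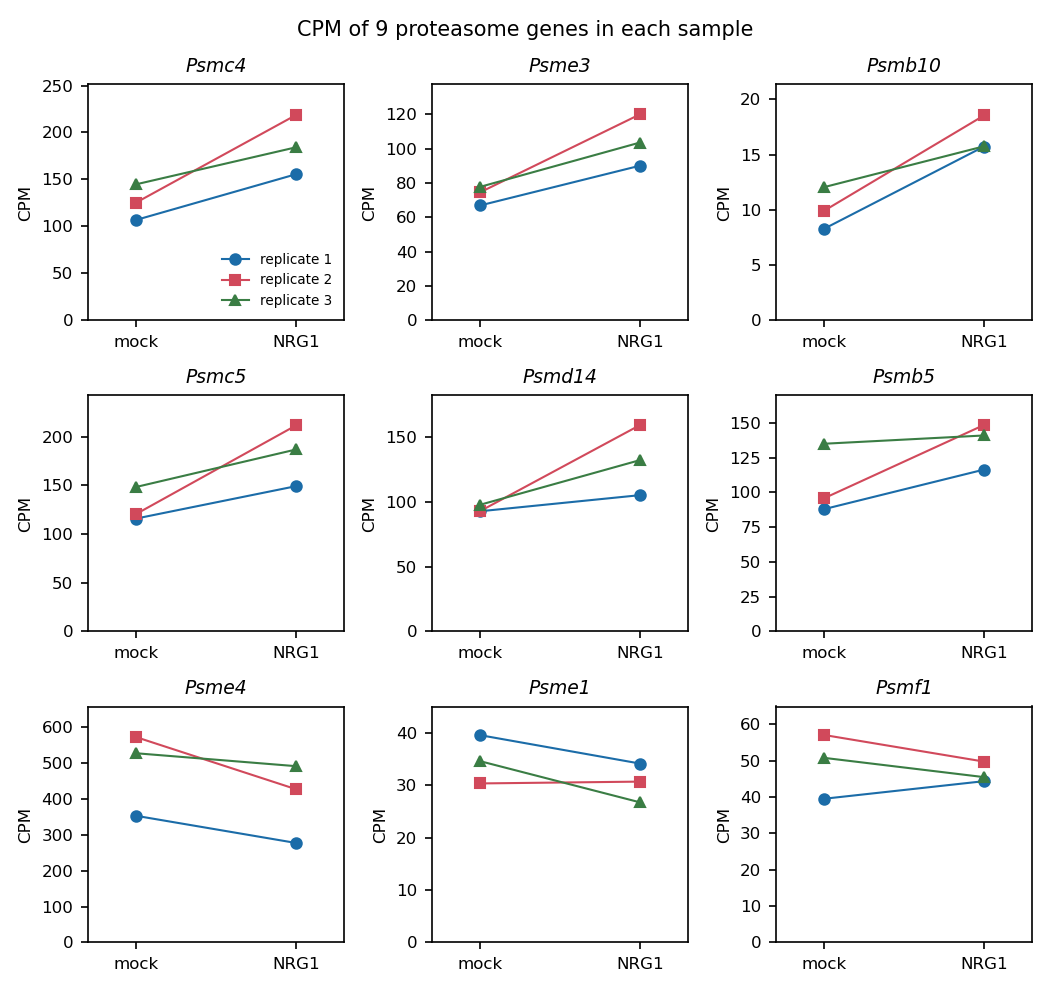
CPM (vertical axis, from 0) of 9 proteasome genes in the mock and NRG1 samples, with lines joining the samples of 1 replicate. The 3 NRG1 values lie above the 3 mock values for Psmc4, Psme3, Psmb10, Psmc5 and Psmd14, and overlap them for Psmb5, Psme4, Psme1 and Psmf1.

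Among the roles of proteasome genes, the activators and the inhibitor were the 1 in which most genes had a negative log2 fold change. These were 4 of 5, against 5144 of all 9740 tested genes, and the median over the 5 was -0.20. Psme3 was the 1 gene called (20%, against 6.31% of all tested genes called higher). Unadjusted, 2 (40%, against 35.7%) had p under 0.05 in edgeR, Psme3 higher and Psme4 lower. Psme4, the large single-chain activator PA200, was counted at 353, 573 and 528 CPM in mock cells and at 278, 428 and 492 CPM after NRG1. It was lower in each of the 3 pairs while the groups overlapped, with a log2 fold change of -0.29 (SE 0.12, edgeR adjusted p = 0.11). Psme1 and Psme2 encode the alpha and beta subunits of the interferon-inducible PA28 ring. Psme1 was counted at 39.6, 30.3 and 34.6 CPM in mock cells and at 34.1, 30.7 and 26.7 CPM after NRG1, with a log2 fold change of -0.20 (SE 0.14, edgeR adjusted p = 0.32). Psme2 was counted at 2.27, 2.81 and 2.92 CPM in mock cells and at 1.60, 3.26 and 2.19 CPM after NRG1, and its log2 fold change of -0.22 (SE 0.30, edgeR adjusted p = 0.63) was smaller than its error. Psmf1, the inhibitor PI31, was counted at 39.6, 57.1 and 50.8 CPM in mock cells and at 44.4, 49.8 and 45.5 CPM after NRG1, with a log2 fold change of -0.07 (SE 0.13, edgeR adjusted p = 0.74). Whether Psme3 responded otherwise than these 4 genes was not tested as a difference.

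The assembly chaperones ranged from a log2 fold change of -0.30 to 0.44 with a median of 0.16, and none of the 6 was called in edgeR or in DESeq2 with the block, while 2 (33.3%, against 35.7%) had an unadjusted p under 0.05. Psmg2, which pairs with Psmg1 to start the alpha ring, was counted at 21.4, 22.6 and 21.5 CPM in mock cells and at 28.9, 37.2 and 24.6 CPM after NRG1. The groups did not overlap, and the log2 fold change was 0.44 (SE 0.15, edgeR adjusted p = 0.044). Psmd10, also known as gankyrin, was counted at 8.82, 5.92 and 9.22 CPM in mock cells and at 7.20, 5.51 and 6.78 CPM after NRG1, a log2 fold change of -0.30 (SE 0.21, edgeR adjusted p = 0.32). The symbol rule also took Psmc3ip, which encodes a partner of recombinases in meiosis and no proteasome subunit. It was counted at 10.8, 9.62 and 8.43 CPM in mock cells and at 9.60, 7.31 and 9.17 CPM after NRG1, with a log2 fold change of -0.13 (SE 0.20, edgeR adjusted p = 0.67). Without Psmc3ip the median over the other 43 tested genes was 0.26.

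At a looser adjusted p of at most 0.05, 12 of the 44 genes were higher and none was lower in edgeR, which is 27.3% higher against 11.5% of all tested genes called higher and 11.7% called lower. Besides Psmc4 and Psme3 these were Psmb10, Psmc5, Psmd14, Psmd3, Psma7, Psmb7, Psmc3, Psmg2, Psmb6 and Psmb3. In 8 of the 44 (18.2%) the 3 NRG1 values all lay above the 3 mock values, against 10.2% of all tested genes, and in none did they all lie below, against 9.94%. A higher count in all 3 pairs was found for 25 (56.8%), against 25.9% of all tested genes.

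Replicate 2 had the largest ratios. The fibroblast marker sum also fell by most in it, from 22332 CPM in mock cells to 13693 CPM after NRG1. Col1a1 alone made up 21494 and 13413 CPM of these sums, while Dcn, Lum and Thy1 had 0 counts in both samples. The part of these markers in the ratios was not tested. The median log2 ratio of NRG1 over mock across the 44 genes was 0.12 in replicate 1, 0.53 in replicate 2 and 0.10 in replicate 3, while the medians over all tested genes were -0.03, -0.03 and -0.01. The ratio was largest in replicate 2 for 39 of the 44 genes (88.6%), against 39.2% of all tested genes, a count made after the values were seen. NRG1 sample 2 also had the highest CPM of the 3 NRG1 samples for 38 of the 44 genes (86.4%), against 33.0% of all tested genes. Without replicate 2 the median log2 fold change was 0.08, a positive value was found for 29 of 45 tested genes (64.4%, against 47.1% of all genes), all of them among the 36 above, and no gene passed in edgeR, with a smallest adjusted p of 0.019. Unadjusted, 11 of these 45 (24.4%, against 33.8% of all genes) had p under 0.05, 9 of them higher. Without replicate 1 the median was 0.30 with 37 of 45 positive (82.2%, against 48.2% of all genes). Without replicate 3 the median was 0.35 with 38 of 45 positive (84.4%, against 48.5% of all genes). All of these medians lay above the median over all tested genes of the same fit, which was between -0.03 and -0.02.

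**Figure D3:**
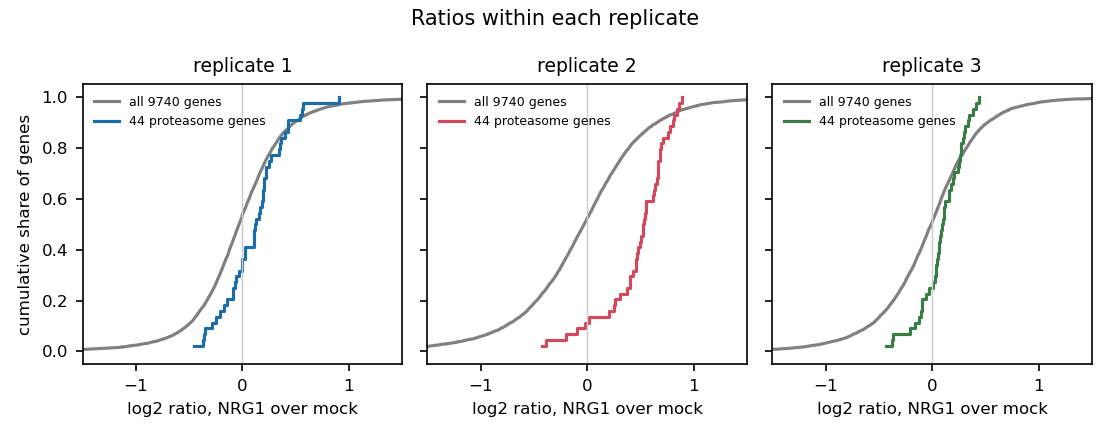
Cumulative share of genes (vertical axis) with a log2 ratio of NRG1 over mock up to the value on the horizontal axis, in each replicate, for the 44 tested proteasome genes and for all 9740 tested genes. The proteasome curve lies furthest to the right of the grey curve in replicate 2, where its median is 0.53, and closer to it in replicates 1 and 3, with medians of 0.12 and 0.10.

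Summed over the 49 genes, proteasome counts made up 0.468%, 0.533% and 0.619% of all gene counts in mock cells of replicates 1, 2 and 3, and 0.502%, 0.756% and 0.664% after NRG1. Each pair had the higher share after NRG1, with ratios of 1.07, 1.42 and 1.07, and the groups overlapped. The mean log2 ratio was 0.24 ± 0.23 (SD, n = 3 pairs), so that the spread between pairs was as large as the mean, and it was 0.10 without replicate 2. By role, the inducible or thymic beta genes, which are mostly Psmb10, had the highest mean log2 ratio, at 0.57 ± 0.22 (SD, n = 3). The ATPases had 0.33 ± 0.30 (SD, n = 3), the constitutive beta genes 0.29 ± 0.28 (SD, n = 3) and the non-ATPase genes 0.27 ± 0.23 (SD, n = 3). The alpha genes had 0.25 ± 0.33 (SD, n = 3) and the assembly chaperones 0.20 ± 0.21 (SD, n = 3). The sum of the activators and the inhibitor, which is mostly Psme4, went the other way in all 3 pairs, at -0.15 ± 0.07 (SD, n = 3). No test was made on these sums, since 3 pairs cannot give a p below 0.25 in an exact paired test.

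**Figure D4:**
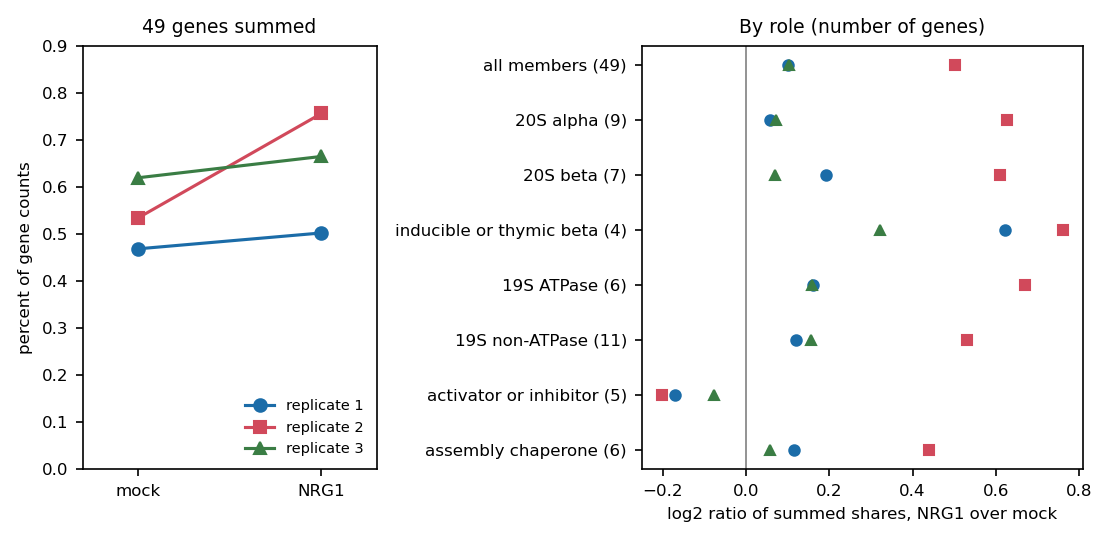
Left, counts of the 49 proteasome genes as a percent of all gene counts (vertical axis, from 0) in the mock and NRG1 samples, with lines joining the samples of 1 replicate. Right, log2 ratio of the summed share (horizontal axis, NRG1 over mock) by role in each replicate. The ratio is positive in all 3 replicates for every role shown other than the activators and the inhibitor.

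The untreated cultures also differed from each other. The ratio of the highest to the lowest mock CPM had a median of 1.28 over the 44 genes, against a median fold change of 1.19. It exceeded the fold change of the same gene, taken in either direction, in 28 of them. This comparison was not made over all tested genes, so it does not show whether the members are unusual. The mock range is a difference between cultures, whereas the fold change was estimated within replicates. Of the 3 mock samples, mock sample 1 was the lowest for 32 of the 44 genes (72.7%), against 41.9% of all tested genes, and mock sample 3 the highest for 32 (72.7%), against 33.8%. Psmd11, at 127 CPM in each of the mock samples, varied least. Mock sample 1 was also the sample with the low Schwann cell and high fibroblast markers given above. The part of the markers in these levels was not tested. Without replicate 1, the log2 fold change was positive for 37 of 45 genes (82.2%, against 48.2% of all genes in that fit), as given above.

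Gene copies limit some of these values, because only reads with 1 place in the genome were counted. RefSeq names 46 pseudogenes of 19 of the 49 genes on the GRCr8 build, up to 7 for a gene, and both called genes are among the 19, with 3 named pseudogenes of Psmc4 and 4 of Psme3. Psmb6, with 2, and Psma3 are further examples in which reads may have been lost to copies. The share of alignments set aside because they had more than 1 place was higher after NRG1 in each pair, at 24.5%, 26.1% and 28.7% in mock cells and 26.4%, 28.85% and 29.9% after NRG1. The median log2 fold change was 0.33 for the 19 genes with a named pseudogene and 0.20 for the 25 tested genes without one. A positive value was found for 15 of the 19 and for 21 of the 25. The part of the copies in the fold changes was not tested.

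Genes that work with the proteasome under other symbols went in both directions. Of a list of 30, 26 were in the files and 25 were tested, with a median log2 fold change of 0.11. A positive value was found for 15 of the 25 (60%, against 47.2% of all tested genes). A higher count in all 3 pairs was found for 44%, against 25.9%, and a lower one for 28%, against 30.0%. At an adjusted p of at most 0.01, 1 rose and 3 fell (4% higher against 6.31% of all tested genes, and 5.51% of all tested genes lower). Ubqln1, which shuttles ubiquitinated proteins to the proteasome, rose with a log2 fold change of 0.47 (SE 0.12, edgeR adjusted p = 0.0092), from a mean of 195 ± 33.9 CPM (SD, n = 3) in mock cells to 271 ± 50.6 CPM (SD, n = 3). The genes that fell were Nfe2l2, Ngly1 and Zfand5. Nfe2l2 encodes NRF2, a transcription factor of the oxidative stress response that binds the antioxidant response element, and fell from a mean of 133 ± 50.1 CPM (SD, n = 3) in mock cells to 92.6 ± 50.4 CPM (SD, n = 3). Its levels overlapped between the groups while every pair fell, with a log2 fold change of -0.59 (SE 0.13, edgeR adjusted p = 0.0044). Ngly1, a glycanase that acts on NRF1, the transcription factor of proteasome genes, fell from a mean of 82.5 ± 2.44 CPM (SD, n = 3) in mock cells to 58.1 ± 5.51 CPM (SD, n = 3), with a log2 fold change of -0.51 (SE 0.12, edgeR adjusted p = 0.0067). Zfand5, a zinc finger protein that stimulates the proteasome in muscle atrophy, fell from a mean of 161 ± 15.4 CPM (SD, n = 3) in mock cells to 114 ± 8.89 CPM (SD, n = 3), with a log2 fold change of -0.50 (SE 0.11, edgeR adjusted p = 0.0065), and like Ngly1 it did not overlap between the groups. Without replicate 3 none of the partner genes passed, and without replicate 1 Ubqln1, Ngly1 and Zfand5 did not, nor Ubqln1 without replicate 2. Ngly1 also missed the threshold in DESeq2 with the block, at an adjusted p of 0.014. Adrm1, a ubiquitin receptor subunit of the regulatory particle, had a log2 fold change of 0.22 (SE 0.12, edgeR adjusted p = 0.19). The chaperone gene Pomp was listed at 0 in all 6 samples, and Nfe2l1, the gene of NRF1, was not analysed here.

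Genes of antigen processing and the interferon response mostly had negative values. Some of them share their known induction by interferon with Psmb8, Psmb9, Psmb10, Psme1 and Psme2. Of 20 listed genes, 15 were tested, with a median log2 fold change of -0.21, and 12 of the 15 were negative, against 5144 of all 9740 tested genes. The 12 include Calr, Canx and Pdia3, which were listed for antigen processing rather than for interferon. At an adjusted p of at most 0.01, 1 fell and 1 rose, against 11.8% of all tested genes called in either direction. Stat2, a transcription factor of the interferon response, fell from a mean of 44.5 ± 10.8 CPM (SD, n = 3) in mock cells to 26.2 ± 18.2 CPM (SD, n = 3), with a log2 fold change of -0.92 (SE 0.19, edgeR adjusted p = 0.0031), and it missed the threshold without replicate 2 (edgeR adjusted p = 0.0143) and without replicate 3 (0.0145), which left 1 called gene in the list. Gbp2, a guanylate-binding protein known as interferon-inducible, rose with a log2 fold change of 1.04 (SE 0.16, edgeR adjusted p = 0.00052). It was counted at 124, 467 and 697 CPM in mock cells and at 335, 1089 and 975 CPM after NRG1. Its groups overlapped while every pair rose, with the smallest log2 ratio, 0.48, in replicate 3. Psmb10 had a higher count in the NRG1 samples, Gbp2 rose and Stat2 fell, and these genes were set side by side only as values.

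**Figure D5:**
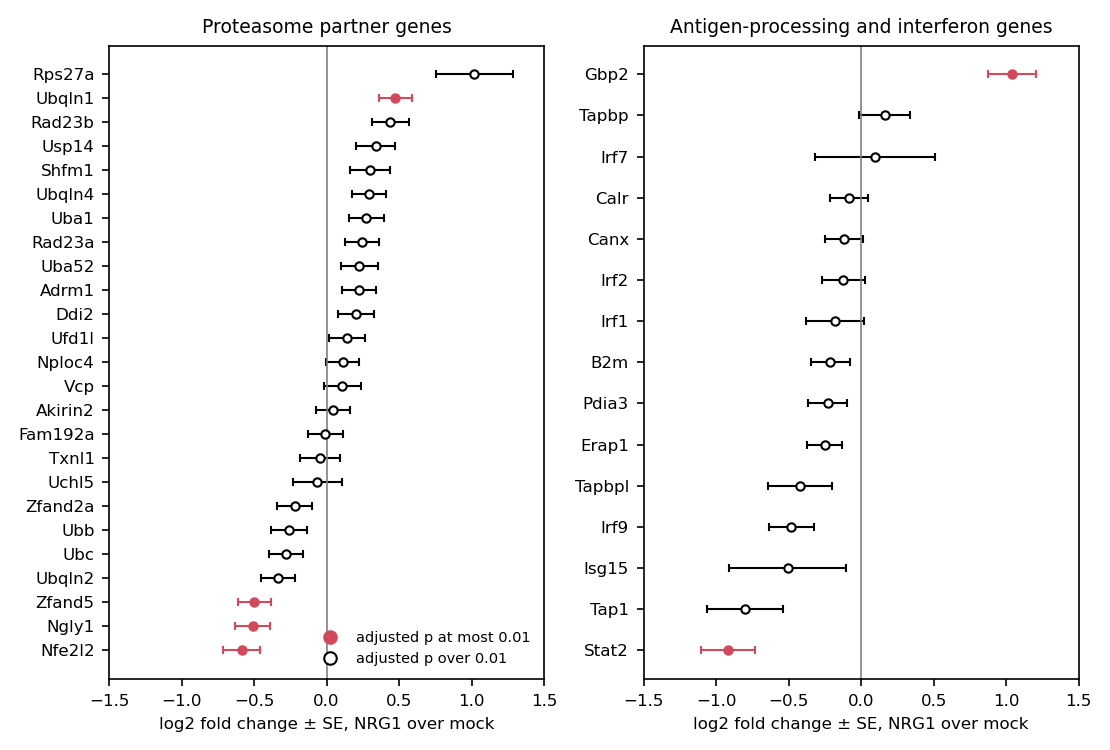
Log2 fold change with 1 standard error (horizontal axis, NRG1 over mock, edgeR) of the 25 tested proteasome partner genes and the 15 tested antigen-processing and interferon genes. Red points had an adjusted p of at most 0.01, namely Ubqln1, Nfe2l2, Ngly1 and Zfand5 on the left and Gbp2 and Stat2 on the right.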

How the data were processed

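RNA was measured in 3 mock and 3 NRG1 samples of rat primary Schwann cells. Poly(A) RNA was sequenced with a TruSeq kit that is not named as stranded. The authors aligned the reads to rn5 (TopHat 2.0.10), assigned them to RefSeq genes with htseq and deposited the raw counts. Without strand, reads of a gene and an antisense partner cannot be told apart. The 5 summary lines of each file, which held between 50.1% and 53.0% of all alignments, were left out of library sizes and tests. Groups and replicate numbers came from the labels.

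Counts were analysed with edgeR 4.0.16 in R 4.3.3: filterByExpr at a minimum count of 10, TMM, and a quasi-likelihood fit of replicate block and condition over 9740 genes, with Benjamini-Hochberg adjustment. The study's methods pair the samples in this way, since each number is 1 cell preparation. Deviations from the group means correlated across genes with r between 0.67 and 0.91 for equal numbers and between -0.80 and 0.51 for different ones. Standard errors are the log2 fold change over the square root of F, ratios within pairs use log2 CPM with a prior count of 2, and CPM use TMM-scaled libraries. Genes were called at an adjusted p no higher than 0.01. The members, gene lists and tests were chosen with earlier results of these data known. Values are given for the called members, for catalytic subunits, activators and inhibitor, for the highest and lowest member of each role, for untested members and for called genes of the lists. Psmc5, Psmd3, Psmd11 and the genes listed at the looser threshold lie outside this rule and were chosen after their values were seen. A listed gene is not reported here. Levels of different genes were not compared, since gene lengths were not used here. Alternatives were DESeq2 1.42.0, RLE, other filters, robust empirical Bayes, no block, an adjusted p of 0.05, a fold threshold inside the test and leaving out each replicate. Sequences came from RefSeq (GRCr8), with 48 of 49 symbols matched.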

Additional observations from a re-analysis of the deposited data

How the results depend on the processing

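The number of proteasome genes called at an adjusted p of at most 0.01, 2 as reported, was 0 with no replicate block in edgeR and in DESeq2, 3 in DESeq2 with the replicate block and with at least 10 counts in every sample, 4 with RLE normalization and with robust empirical Bayes, 5 with no low-count filter and 12 at an adjusted p of at most 0.05. The shares of all tested genes called higher in these fits were 0%, 1.20%, 5.77%, 6.81%, 6.83%, 6.52%, 6.46% and 11.5%. Leaving out a replicate gave from 0 to 1. The shares of all tested genes called higher without replicates 1, 2 and 3 were 5.94%, 5.07% and 4.02%. No proteasome gene was called lower under any of these, and the count past the 2-fold threshold was 0 under every alternative. Of the partner genes, 4 as reported, 0 were called without the block by either tool and from 0 to 3 when a replicate was left out. Of the antigen-processing and interferon genes, 2 as reported, 0 were called without the block by either tool, from 1 to 3 when a replicate was left out and 4 at an adjusted p of at most 0.05. Of these 4 of the 15 tested, 1 was higher and 3 were lower, against 11.5% and 11.7% of all tested genes. In the fits without replicates 1, 2 and 3, 1191 of 9926, 916 of 10339 and 661 of 10160 tested genes were called in either direction. The block moved the common biological coefficient of variation from 0.37 to 0.12. The log2 ratio of summed shares lay between 0.10 and 0.30 over its alternatives. Psmc6 changed sign to 0.00477 with no replicate block, 0.00117 in DESeq2 with the replicate block and 0.0228 in DESeq2 without it. When a replicate was left out, its log2 fold change ranged from -0.22 to 0.16, that of Psmf1 from -0.18 to 0.00246, that of Psmd8 from -0.0942 to 0.115 and that of Psmb1 from -0.0364 to 0.284. The cause of these changes was not tested. With 3 pairs, calls of single members depended on their error as well as on their size, since Psmb6 at a log2 fold change of 0.55 (SE 0.19) was not called and Psme3 at 0.51 (SE 0.12) was. Psmb8, Psmb9, Psmb11, Psma3l and Psma8 had at most 14 counts in a sample, too few for a fold change here.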
